A study of Homo sapiens with 2 samples.

Results

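The nuclear-encoded genes of the mitochondrial respiratory chain and ATP synthase were examined in HaCaT cells, a spontaneously immortalised line of human epidermal keratinocytes. Genes were taken by symbol: NDUFA, NDUFB, NDUFC, NDUFS and NDUFV for complex I, SDHA to SDHD for complex II, UQCR for complex III, COX4 to COX8 for complex IV and ATP5 for complex V. The NDUFA prefix also takes in the complex I assembly factors NDUFAF1 to NDUFAF8. This gave 92 of the 15159 genes listed, and 88 of them had at least 20 reads in 1 library. One dish carried FLI1 overexpression (MigR1-Fli1) and the other the Vector (MigR1). Both were transfected with 4 µg of DNA and Lipofectamine 2000, checked for GFP and harvested after 2 days. The labels do not say whether cells with the plasmid were sorted, so each library may hold cells with and without it. Each group had 1 library, so no difference below has a replicate check and no p-value was computed. The 95% intervals compare these 2 libraries and cover counting error only. The library labelled FLI1 held 14677273 reads and the vector library 14497105. FLI1 itself had 2452 reads in the FLI1 library, against 64 in the vector library. All 15 keratinocyte markers examined passed the filter, and none had an interval that included 0. Their median log2 ratio, FLI1 over vector, was 0.12, with 11 above 0 and 4 below, between KRT17 at 0.44 and KRT5 at -0.26. Of the fibroblast, melanocyte, leukocyte and endothelial markers, 4 of 25 passed 20 reads: COL1A1 (98 and 100 reads, FLI1 and vector), PMEL (97 and 3), ITGAM (32 and 21) and VWF (90 and 52). Their part in the differences below was not tested.

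The respiratory chain passes electrons from NADH (complex I) and succinate (complex II) through ubiquinone to complex III, cytochrome c and complex IV, where oxygen is reduced. Complexes I, III and IV pump protons across the inner mitochondrial membrane, and complex V uses the gradient to make ATP. Most subunits are encoded in the nucleus and imported, and a few core subunits of complexes I, III, IV and V come from mitochondrial DNA. Nuclear genes of the chain are known targets of the factors NRF1 and GABP. GABP, like FLI1, belongs to the ETS family, whose members recognise a GGAA core.

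Respiratory chain genes were slightly lower in the FLI1 library. Their median log2 ratio, FLI1 over vector, was -0.07, which is a difference of -4.44%, and the ratios of all 88 genes lay between -0.27 and 0.17. Over all 11659 genes with at least 20 reads in 1 library the median was -0.0036. A ratio below 0 was found in 66 of the 88 genes, against 50.8% of all genes. The interval lay wholly below 0 for 26 genes (29.5%), against 14.7% of all genes and 16.0% of those with at least 100 reads. It lay wholly above 0 for 2 genes, NDUFA8 and UQCR11, against 16.5% of all genes and 17.4% of those with at least 100 reads. The 88 genes had a median of 945.5 reads, against 542 over all genes, and intervals narrow as reads rise. At least 1.2-fold lower was 1 gene, NDUFV1 (10.2% of all genes), and at least 1.2-fold higher were 0 genes (10.8% of all genes). None of the 88 was at least 2-fold lower or higher, which 0.480% and 1.19% of all genes were. In sum the 88 genes had 124361 reads in the FLI1 library and 130974 in the vector library, a difference of -4.54% after scaling (interval -5.27% to -3.79%). They made up 2.57% of all TPM, the deposited abundance scaled for transcript length and depth, in the FLI1 library and 2.69% in the vector library. In RNA from a whole dish, less RNA per cell and fewer cells of one kind cannot be told apart.

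**Figure D1:**
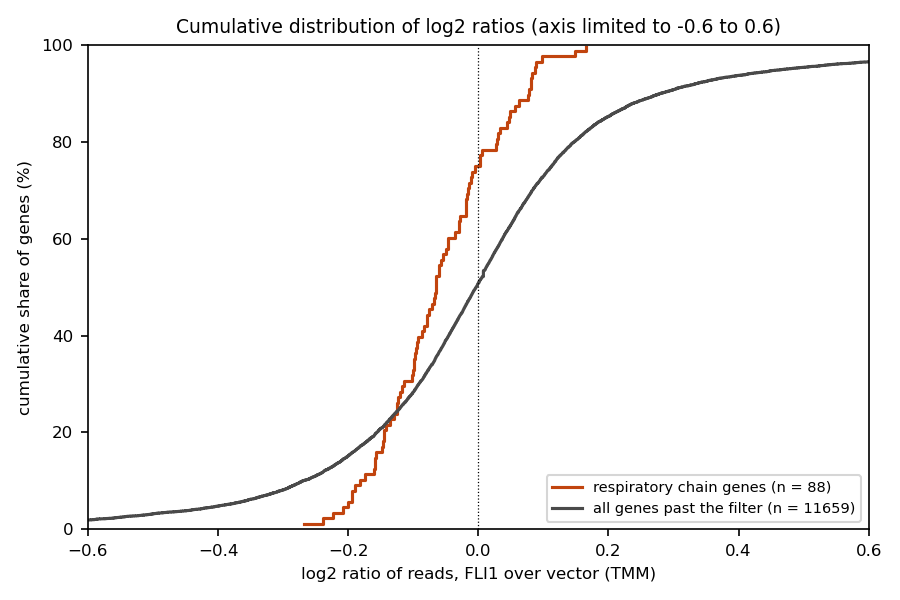
Cumulative share of genes (y axis, %) by log2 ratio of reads, FLI1 over vector (x axis), for the 88 respiratory chain genes and for all 11659 genes past the filter. The respiratory chain curve crosses 50% at -0.07 and runs from -0.27 to 0.17, while the curve of all genes crosses 50% near 0 and reaches past both ends of the axis.

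The libraries also differed in a technical property, whose part in the difference above was not tested. The count and FPKM of a transcript together give the effective length used for scaling, and this was shorter in the FLI1 library. The median difference was -6.03 bases in transcripts with an effective length of up to 200 bases. It was -6.22 bases in those with an effective length of 500 to 1000 bases. Both values are from transcripts with at least 500 reads in both libraries. At an effective length of 200 to 300 bases the median log2 difference was -0.03. Respiratory chain genes are short, with a median implied length, the mean effective length of the gene in the libraries, of 539 bases against 2882 over all genes. When each count was divided by its implied length, an alternative chosen after seeing the data, the median of the 88 genes was -0.04 and that of all genes was 0.0051. With that scale 55 of 88 genes lay below 0, against 48.9% of all genes. The implied length comes from the FPKM, so this scale is the deposited FPKM up to a constant shared by all genes. From FPKM plus 0.5 the medians were -0.064 for the 88 genes and -0.019 for all genes. There 66 of 88 genes lay below 0, against 54.7% of all genes. On counts, the 55 respiratory chain genes with an implied length under 1000 bases had a median of -0.06 and the 33 longer ones of -0.07. All 1119 genes with an implied length under 1000 bases had a median of -0.01. The complex I median was -0.05 on counts and -0.01 per implied length, and that of the complex I assembly factors was -0.11 on counts and -0.07 per implied length.

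Promoters of 6 genes are printed here because they hold the letters recognised by these factors and come from genes at both ends of the range of ratios. The sequences are from RefSeq on build GRCh38.p14 and run 5′ to 3′ from 250 bases before to 50 bases after an annotated start. Capitals mark the ETS letters CCGGAAG and the NRF1 letters GCGCATGCG, each on either strand. NDUFA13 (chr19:19515975-19516274, plus strand) and SDHB (chr1:17053983-17054282, minus strand) had the lowest ratios among genes with the ETS letters. COX6B1 (chr19:35648073-35648372, plus strand) and UQCR11 (chr19:1605413-1605712, minus strand) had the highest. NDUFA5 (chr7:123557769-123558068, minus strand) and NDUFA8 (chr9:122159730-122160029, minus strand) had the lowest and the highest ratio among genes with the NRF1 letters. The 6 were chosen after their ratios were seen.
NDUFA13: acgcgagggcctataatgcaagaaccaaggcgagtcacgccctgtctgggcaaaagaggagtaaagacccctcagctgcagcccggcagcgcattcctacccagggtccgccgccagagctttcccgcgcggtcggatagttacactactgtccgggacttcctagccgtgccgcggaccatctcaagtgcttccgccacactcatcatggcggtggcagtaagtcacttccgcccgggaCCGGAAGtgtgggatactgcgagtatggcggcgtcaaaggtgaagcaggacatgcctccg
SDHB: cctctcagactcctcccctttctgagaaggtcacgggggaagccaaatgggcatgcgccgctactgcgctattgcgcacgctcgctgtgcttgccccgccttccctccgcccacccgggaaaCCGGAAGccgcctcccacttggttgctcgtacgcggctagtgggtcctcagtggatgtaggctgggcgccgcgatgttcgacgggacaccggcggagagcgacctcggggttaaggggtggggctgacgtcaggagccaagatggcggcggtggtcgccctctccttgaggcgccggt
COX6B1: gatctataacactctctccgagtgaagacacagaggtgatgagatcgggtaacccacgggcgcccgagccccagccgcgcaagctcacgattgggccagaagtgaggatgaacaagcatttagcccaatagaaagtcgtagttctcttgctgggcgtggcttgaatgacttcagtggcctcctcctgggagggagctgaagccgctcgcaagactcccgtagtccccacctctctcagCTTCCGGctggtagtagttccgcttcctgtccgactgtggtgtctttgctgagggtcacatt
UQCR11: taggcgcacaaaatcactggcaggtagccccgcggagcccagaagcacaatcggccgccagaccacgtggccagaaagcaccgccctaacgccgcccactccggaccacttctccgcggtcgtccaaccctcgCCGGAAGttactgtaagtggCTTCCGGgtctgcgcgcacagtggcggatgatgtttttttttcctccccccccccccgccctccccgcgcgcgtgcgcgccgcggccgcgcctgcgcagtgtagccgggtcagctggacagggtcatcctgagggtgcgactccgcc
NDUFA5: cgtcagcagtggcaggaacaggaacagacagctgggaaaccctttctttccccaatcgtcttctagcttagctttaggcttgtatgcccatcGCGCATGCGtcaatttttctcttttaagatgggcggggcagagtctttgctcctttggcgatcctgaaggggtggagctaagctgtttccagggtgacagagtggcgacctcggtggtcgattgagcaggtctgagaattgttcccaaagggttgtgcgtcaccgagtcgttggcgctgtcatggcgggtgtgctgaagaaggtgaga
NDUFA8: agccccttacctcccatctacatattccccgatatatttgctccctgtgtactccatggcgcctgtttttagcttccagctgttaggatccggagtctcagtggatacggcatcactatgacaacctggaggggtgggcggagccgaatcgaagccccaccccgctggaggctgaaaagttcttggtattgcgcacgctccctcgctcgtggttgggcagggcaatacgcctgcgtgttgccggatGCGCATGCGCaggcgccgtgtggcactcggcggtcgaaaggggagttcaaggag

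The letters CCGGAAG were found in a promoter of 23 of the 75 respiratory chain genes with a promoter matched by gene ID (30.7%). They were found in 23.8% of the 9613 matched genes past the filter and in 12.2% of all 27305 genes with a promoter. GCGCATGCG was found in 12 genes (16.0%), against 4.44% of genes past the filter and 2.34% of all genes. GCCATNTT, the letters of the factor YY1, was found in 28 genes (37.3%), against 12.9% and 7.97%. The GC box GGGCGG of SP1 was found in 48 genes (64.0%), against 77.5% and 48.3%. Both strands were searched, a gene was counted once if any of its promoters matched, and the NRF1 letters can overlap themselves on the opposite strand, as in NDUFA8. Respiratory chain genes had 1.24 promoters each and genes past the filter 1.46. Median ratios were close with and without these letters. The median was -0.08 for the 23 genes with the ETS letters, of which 18 lay below 0, and -0.07 for the 52 without, of which 37 lay below 0. With the NRF1 letters it was -0.05 in 12 genes and without them -0.07 in 63. For YY1 it was -0.08 in 28 and -0.07 in 47, and for SP1 -0.06 in 48 and -0.07 in 27. Intervals below 0, which 14.7% of all genes had, were found in 8 of 23 genes with the ETS letters and 13 of 52 without. They were found in 4 of 12 and 17 of 63 for NRF1, 10 of 28 and 11 of 47 for YY1, and 12 of 48 and 9 of 27 for SP1. UQCR11, whose promoter holds the ETS letters at 2 places, was the highest of all 88 genes, and NDUFA13, with 1 match whose first base is at -10 from the start, was the second lowest. These matches describe letters in a window and not binding.

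Complex I, the NADH dehydrogenase, was represented by 37 subunit genes with a median log2 ratio of -0.05. Of these, 25 lay below 0 (67.6%, against 50.8% of all genes), 7 had an interval below 0 and 1 an interval above 0. The 7 are 18.9% of the complex, near the 16.0% of all genes with at least 100 reads. NDUFV1, the flavoprotein subunit that takes electrons from NADH, had 1948 reads in the FLI1 library, against 2359 in the vector library, and a ratio of -0.27 (-0.36 to -0.18), the lowest of the 88 genes. NDUFA13, also known as GRIM-19 and part of the membrane arm, had 574 reads in the FLI1 library and 681 in the vector library (-0.24, -0.40 to -0.08). NDUFA5, an accessory subunit of the ubiquinone-reducing module, had 1011 and 1174 reads (-0.21, -0.33 to -0.09). NDUFA6, NDUFB9 and NDUFA9, accessory subunits, also had intervals below 0, with ratios from -0.16 to -0.10. At the other end NDUFA8, a twin-cysteine subunit of the membrane arm, had 970 reads in the FLI1 library and 880 in the vector library (0.15, 0.02 to 0.28). Scaled by library total its ratio was 0.12 and the interval included 0. NDUFB8 of the distal membrane arm (1382 and 1306 reads, 0.09) and NDUFAB1, the mitochondrial acyl carrier protein (756 and 718 reads, 0.08), had intervals that included 0.

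The parts of complex I did not differ clearly from each other. Genes were placed in modules by hand, with NDUFB1 and NDUFA9 in the proximal membrane arm, and other placements of them were not run. Medians were -0.03 in the 10 genes of the NADH-oxidising module and -0.08 in the 5 genes of the ubiquinone-reducing module. They were -0.06 in the 11 genes of the proximal membrane arm and -0.06 in the 10 genes of the distal membrane arm. Summed reads gave differences of -5.30%, -5.53%, -3.07% and -3.51% in the same order, with intervals that overlapped. Within the NADH module NDUFV1 stood apart from its partner flavoprotein NDUFV2 (877 and 900 reads, -0.03) and from the large iron-sulphur subunit NDUFS1 (2090 and 2146 reads, -0.03), whose intervals included 0. By TPM the most abundant complex I genes were NDUFB9 (938 TPM in the FLI1 library and 1024 in the vector library, log2 ratio of reads -0.11), NDUFA1 (644 and 690 TPM, -0.13) and the zinc-binding subunit NDUFS6 (676 and 637 TPM, 0.08). NDUFA1 had an interval that included 0, and one below 0 when scaled by library total (-0.15).

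The complex I assembly factors NDUFAF1 to NDUFAF8, which help to build the complex and are absent from it when finished, were less abundant and less precisely measured. Their TPM ran from 16.9 to 156 in the FLI1 library and from 19.7 to 152 in the vector library, and all 8 intervals included 0. The median ratio was -0.11, with 6 of 8 below 0 (75%, against 50.8% of all genes). Their summed reads (2375 in the FLI1 library and 2495 in the vector library) differed by -4.29% (-9.56% to 1.28%). NDUFAF3 had 119 and 135 reads (-0.17), NDUFAF2 148 and 166 (-0.16) and NDUFAF7 273 and 303 (-0.14). On the higher side, NDUFAF6 had 268 and 258 reads (0.06) and NDUFAF8 369 and 359 (0.05), while NDUFAF1 had 403 and 408 (-0.01).

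Complex II, succinate dehydrogenase, joins the chain to the citric acid cycle and is encoded wholly in the nucleus. On counts all 4 of its genes lay below 0, with a median of -0.12. A ratio below 0 was found in 50.8% of all genes. The pair that forms the catalytic head was lower than the pair that anchors it in the membrane. SDHA, which binds the flavin and oxidises succinate, had 3740 reads in the FLI1 library and 4265 in the vector library (-0.18, -0.25 to -0.12). SDHB, the iron-sulphur subunit, had 1339 reads in the FLI1 library and 1541 in the vector library (-0.19, -0.30 to -0.09). The membrane anchors SDHC (1898 and 1990 reads, -0.06) and SDHD (2615 and 2682 reads, -0.03) had intervals that included 0, and SDHC lay at 0.0072 per implied length. Summed, the head genes differed by -12.0% (-15.3% to -8.66%) and the anchor genes by -2.88% with an interval that included 0. The interval of the anchor genes reached down to -6.79%, so the 2 did not overlap. SDHA has near-identical pseudogene copies. Its deposited counts were whole numbers, as were those of 81.5% of all genes listed. This does not show whether reads of the copies were counted for SDHA.

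Complex III, the cytochrome bc1 complex, had 8 genes with a median of -0.09, 5 of them with an interval below 0 and 1 above 0. These are 62.5% and 12.5% of its genes, against 14.7% and 16.5% of all genes. UQCR10, a small subunit, had 896 reads in the FLI1 library and 1052 in the vector library (-0.22, -0.35 to -0.09). The core protein genes UQCRC1 (1700 and 1895 reads, -0.15) and UQCRC2 (3401 and 3585 reads, -0.07) and the small subunits UQCRQ (838 and 932 reads, -0.15) and UQCRH (1730 and 1890 reads, -0.12) also had intervals below 0, that of UQCRC2 only just. UQCRFS1, the Rieske iron-sulphur protein that carries electrons to cytochrome c1, had 2408 and 2412 reads (0.0054), and lay at -0.02 when scaled by library total. UQCRB (2244 and 2353 reads, -0.06) had an interval that included 0, and one below 0 when scaled by library total (-0.09). UQCR11, another small subunit, went the other way, with 928 reads in the FLI1 library and 832 in the vector library (0.17, 0.03 to 0.30). CYC1, which encodes cytochrome c1 and falls outside the symbol rule, had 2920 reads in the FLI1 library and 3249 in the vector library (-0.15, -0.22 to -0.07). The small subunits thus held the lowest and the highest ratio of the complex, -0.22 and 0.17.

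Complex IV, cytochrome c oxidase, had 12 genes past the filter with a median of -0.03. Of these, 8 lay below 0 (66.7%, against 50.8% of all genes), 4 had an interval below 0 and 0 an interval above 0. The 4 are 33.3% of the complex, against 14.7% of all genes and 16.0% of those with at least 100 reads. The lowest were COX7A2 (1207 reads in the FLI1 library and 1342 in the vector library, -0.15, -0.26 to -0.03), COX7C (1814 and 1987, -0.12) and COX6C (1599 and 1743, -0.12), all small membrane subunits. COX6A1, the most abundant of the 88 genes at 1508 TPM in the FLI1 library and 1618 TPM in the vector library, had a ratio of reads of -0.10 (-0.17 to -0.03). COX8A had 1701 and 1824 reads (-0.09), with an interval that included 0 by TMM and lay below 0 when scaled by DESeq2 size factors (-0.10) or library total (-0.12). COX4I1, the largest nuclear-encoded subunit, had 3457 and 3520 reads (-0.02). Above 0 were COX7A2L, a factor that links complexes III and IV (915 and 860 reads, 0.10), COX6B1, a subunit on the intermembrane side (896 and 848, 0.09), NDUFA4 (1368 and 1330, 0.05) and COX7B (1380 and 1358, 0.03). COX7A2L lay at -0.0014 from FPKM plus 0.5 and at 0.02 per implied length, so its direction depends on the scale. NDUFA4 is counted here because its protein belongs to complex IV despite its symbol.

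The 2 tissue-restricted relatives of complex IV subunits that were measured had few reads in both libraries. COX6B2, the testis form of COX6B1, had 6.33 estimated reads in the FLI1 library and 6.56 in the vector library. NDUFA4L2, a relative of NDUFA4 known from hypoxic cells, had 1 and 2 reads. COX4I2, COX6A2, COX7A1, COX7B2 and COX8C were not analysed here. Of this pair, the widely used form was far higher in both libraries, COX6B1 at 522 TPM in the FLI1 library and 488 TPM in the vector library, against 0.48 and 0.56 TPM for COX6B2.

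Complex V, ATP synthase, had 16 of 17 subunit genes below 0, a median of -0.09, 8 intervals below 0 and 0 above 0. The 8 are 47.1% of its subunit genes, against 14.7% of all genes and 16.0% of those with at least 100 reads. A ratio below 0 was found in 50.8% of all genes. Genes of the peripheral stalk, which holds the catalytic head in place, and of the c-ring, which turns with the proton flow, had medians of -0.17 and -0.16, against -0.05 in the catalytic F1 head. In the stalk, ATP5PD had 1247 reads in the FLI1 library and 1430 in the vector library (-0.19, -0.30 to -0.08). ATP5PF had 579 and 666 rounded reads (-0.19, -0.36 to -0.03), ATP5PB 2528 and 2838 (-0.16, -0.24 to -0.08), and ATP5PO 1066 and 1144 (-0.09, with an interval that included 0). The 3 c-ring genes encode one mature protein behind different import signals, and all had intervals below 0. ATP5MC2 had 735 and 849 reads (-0.20, -0.34 to -0.06), ATP5MC1 910 and 1022 (-0.16, -0.29 to -0.03) and ATP5MC3, which held most of the c-ring reads in both libraries, 3128 and 3323 (-0.08, -0.15 to -0.01). Summed reads differed by -10.3% in the stalk (-13.6% to -6.98%), by -7.61% in the c-ring (-11.2% to -3.89%) and by -2.99% in the head (-4.61% to -1.34%). The interval of the stalk did not overlap that of the head, and the interval of the c-ring did. The 5 small membrane subunit genes differed by -4.96% (-8.75% to -1.01%), which overlapped stalk, c-ring and head. Of the 26771 head reads in the FLI1 library, ATP5F1B held 12583 and ATP5F1A 9003, so these genes lead the head sum.

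In the F1 head, the catalytic beta subunit gene ATP5F1B had 12583 reads in the FLI1 library and 12815 in the vector library (-0.02, -0.05 to 0.02), and its interval lay below 0 only when scaled by library total (-0.04). ATP5F1A, the alpha subunit gene, had 9003 and 9558 reads (-0.08, -0.12 to -0.04). ATP5F1C (-0.02), ATP5F1D (-0.05) and ATP5F1E (-0.09) had intervals that included 0. Among the small membrane subunits, ATP5MF had 1009 and 1115 reads (-0.14, -0.26 to -0.01). ATP5ME (333 and 336 reads, -0.0051) and ATP5MK (753 and 756 reads, 0.0021) were closest to 0 on counts. The direction of both depends on the scale: ATP5ME lay at 0.11 from FPKM plus 0.5 and at 0.14 per implied length, and ATP5MK at -0.02 when scaled by library total. ATP5IF1, the inhibitor that blocks ATP hydrolysis and is kept apart from the subunits here, had 1118 reads in the FLI1 library and 1122 in the vector library (0.0026). Per implied length its ratio was 0.12, and scaled by library total -0.02.

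**Figure D2:**
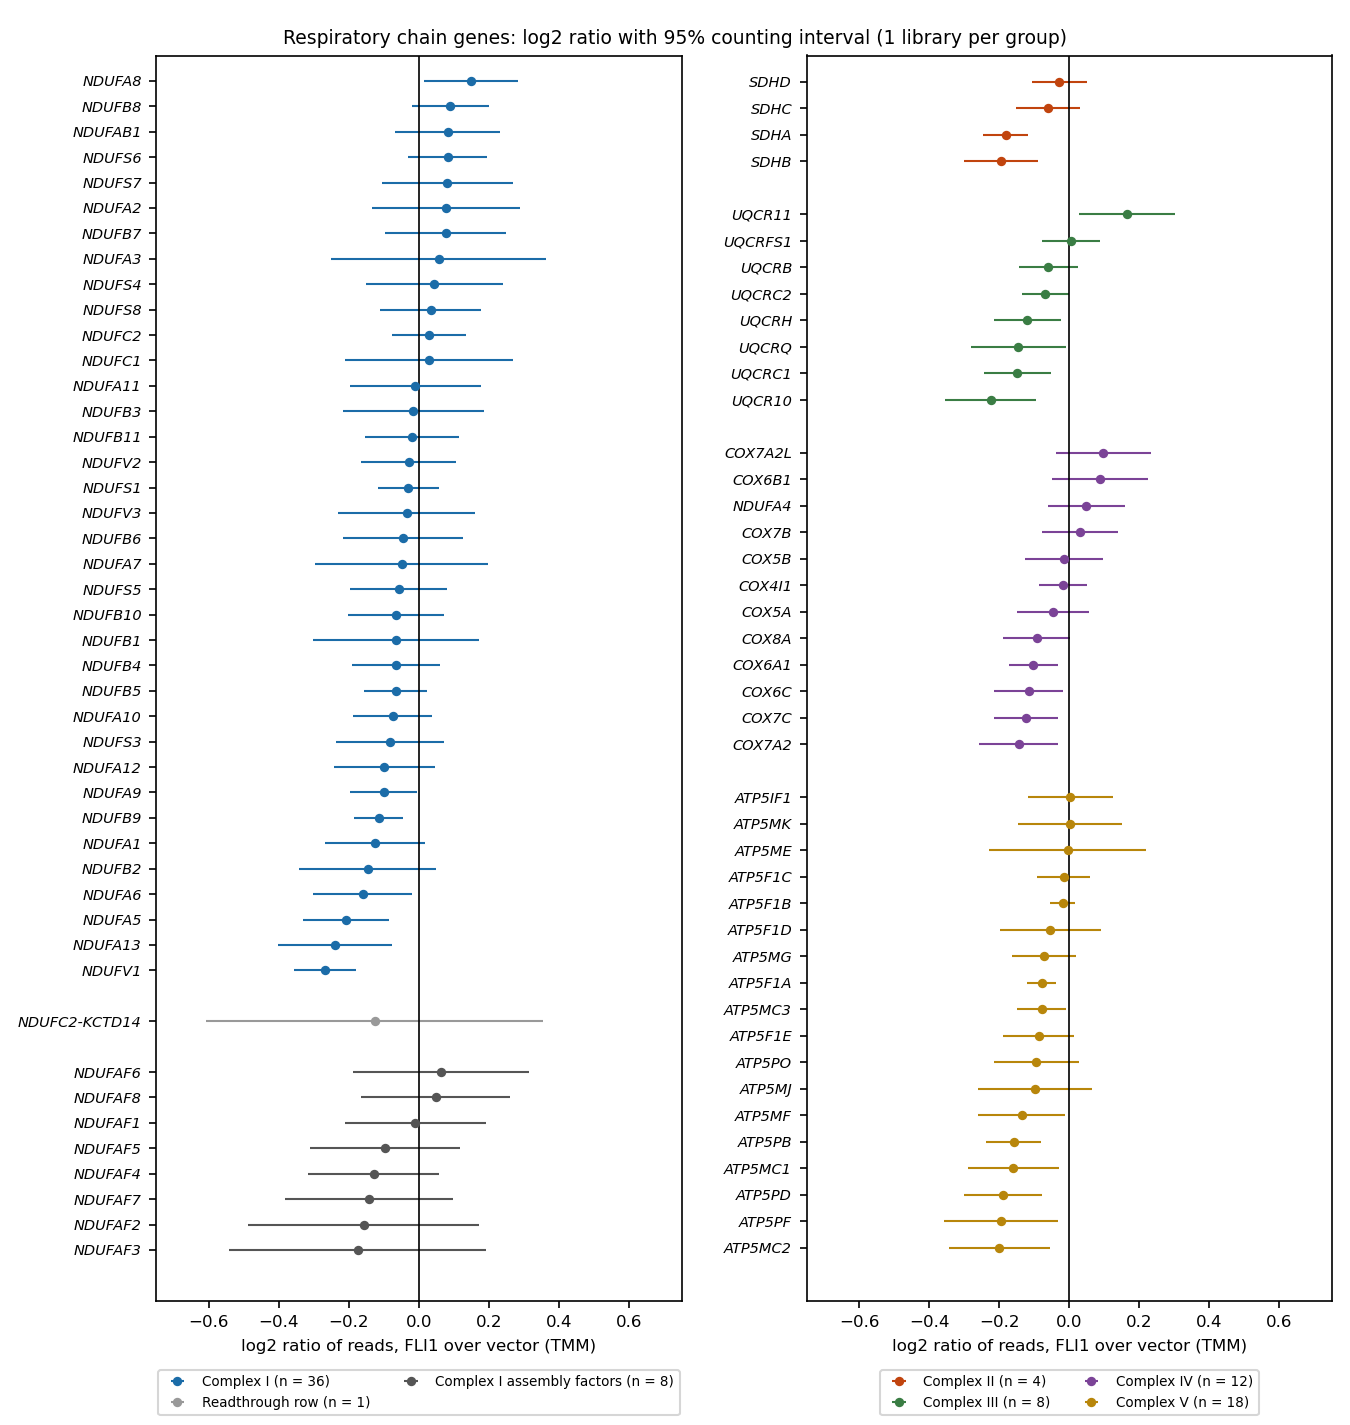
Log2 ratio of reads, FLI1 over vector (x axis), of 87 respiratory chain genes (y axis), coloured by complex, with bars for the 95% counting interval of 1 library per group. On counts, points of complexes II and V lie below 0 except ATP5MK and ATP5IF1, complexes I, III and IV have genes on both sides, and NDUFV1 is lowest at -0.27.

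Set side by side, the complexes differed little. Summed reads, FLI1 against vector, differed by -4.00% in complex I (-5.40% to -2.59%), by -7.96% in complex II (-10.5% to -5.37%), by -4.88% in complex III (-7.05% to -2.66%), by -3.30% in complex IV (-5.14% to -1.42%) and by -4.77% in complex V (-6.04% to -3.48%). All 5 intervals lay below 0. The interval of complex II did not overlap that of complex IV, and every other pair overlapped. With 1 library each, variation between dishes is unknown and differences between complexes were not tested. Mitochondrial ribosomal protein genes, another nuclear-encoded mitochondrial group, had a median of -0.03 in 78 genes, with 13 intervals below 0 and 3 above. Cytosolic ribosomal protein genes had a median of -0.01 in 83 genes, with 19 intervals below 0 and 15 above. Intervals below 0 were 16.7% of the mitochondrial and 22.9% of the cytosolic group, against 14.7% of all genes. Those above 0 were 3.85% and 18.1%, against 16.5% of all genes. Median reads were 653.5 in the mitochondrial and 7140 in the cytosolic group, against 542 over all genes, and intervals narrow as reads rise.

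Levels differed far more between genes than between libraries. On the TPM scale the 88 genes ran from 5.01 to 1508 in the FLI1 library and from 5.55 to 1618 in the vector library. Median TPM was 189 in the FLI1 library and 205 in the vector library for complex I, 204 and 236 for complex II, 133 and 141 for complex III, 476 and 478 for complex IV, and 272 and 309 for complex V. Across the 88 genes log2 TPM in the 2 libraries had a Pearson correlation of 0.998, a description across genes that share depth and scaling. The log2 ratio itself was almost unrelated to level (Spearman -0.06) or to implied length (-0.04). Some of the low TPM values rest on long transcripts to which the reads were assigned: the implied length was 8183 bases for UQCRB and 11371 bases for NDUFS1, so their rank by TPM depends on that assignment.

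**Figure D3:**
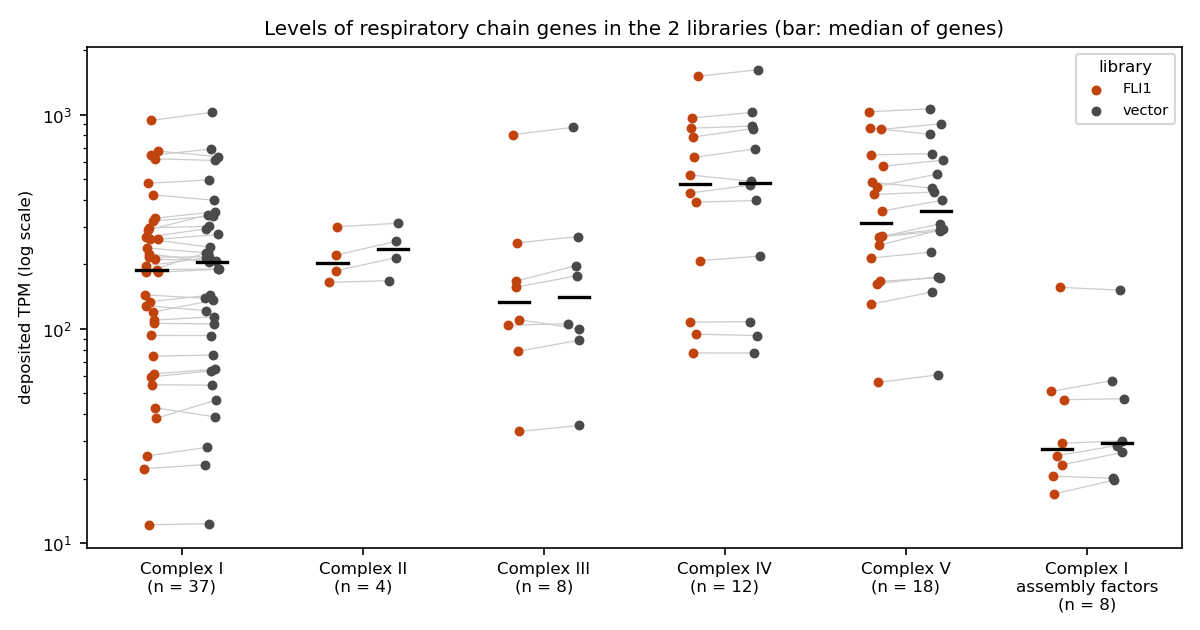
Deposited TPM (y axis, log scale) of respiratory chain genes in the FLI1 library (left of each pair) and the vector library (right), by complex, with grey lines joining a gene and black bars for the median over genes. Pairs are close to level in every complex, COX6A1 is highest at 1508 and 1618 TPM, and the 8 assembly factors have the lowest medians. Complex V here includes ATP5IF1.

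Rows that share sequence with another gene were few. The readthrough row ATP5MF-PTCD1 had 0 reads in the FLI1 library and 15.1 estimated reads in the vector library, at least 4.97-fold lower against a floor of 3 reads, with a limit of 3.57-fold from the counting interval. It lies below the filter, and its reads cannot be told apart from those of ATP5MF and PTCD1. UQCRHL, a retrocopy of UQCRH, had 2.03 estimated reads in the FLI1 library and 0 in the vector library. NDUFC2-KCTD14, a readthrough row past the filter, had 72 and 79 rounded reads (-0.13, with an interval that included 0). Counts were whole to within 0.005 reads in both libraries for 75 of the 88 genes, and these alone had a median of -0.06.

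Transcripts of the same gene were then compared. The 88 genes had 252 listed transcripts: 31 genes had 1 and 57 had 2 or more. The leading transcript was the same in both libraries for 84 genes. These include the 31 genes with 1 transcript, for which no other outcome was possible. A transcript with at least 50 reads changed its share of the gene by at least 10 percentage points in 5 genes. The rate of such changes over all genes was not computed, so whether 5 is many or few cannot be said. In NDUFAF1, NM_016013 held 23.4% of reads in the FLI1 library and 41.6% in the vector library, while XM_011521659 held 23.5% and 4.72%. In NDUFC1, a small membrane arm subunit gene, NM_001184987 held 37.0% in the FLI1 library and 61.8% in the vector library. In NDUFA3, XM_017026833 held 74.0% and 51.7%, in NDUFAF6, NM_152416 held 39.9% and 52.2%, and in NDUFV3, NM_021075 held 30.4% and 40.4%. These are estimated counts of transcripts that overlap each other, the error of assigning reads is unknown, and at gene level the intervals of all 5 genes included 0.

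Most lists of assembly genes outside the symbol rule also lay below 0, which 50.8% of all genes did, and 14.7% of all genes had an interval below 0. Of 11 other complex I assembly genes, 11 lay below 0 and 4 had an interval below 0, led by TMEM126A (308 reads in the FLI1 library and 415 in the vector library, -0.42, -0.64 to -0.21) and NUBPL (284 and 366 reads, -0.36). Of 6 measured complex III assembly genes, 6 lay below 0 and 4 had an interval below 0, led by UQCC2 (270 and 372 reads, -0.45, -0.69 to -0.22) and BCS1L (640 and 738 reads, -0.20). Complex IV assembly genes had a median of -0.10 in 27 genes, with 6 intervals below 0 (22.2%), including PET100 (226 and 301 reads, -0.40) and CMC1 (163 and 217 reads, -0.40), and 1 above 0, that of LRPPRC. COA1 is in the complex I and the complex IV list. All 5 ATP synthase assembly genes lay below 0, with 1 interval below 0, that of ATPAF1 (468 and 577 reads, -0.29). The 3 measured complex II assembly genes lay above 0, with intervals that included 0.

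Coenzyme Q synthesis genes had a median of -0.15 in 11 genes, with 3 intervals below 0 and 0 above, and the lowest were COQ3 (273 reads in the FLI1 library and 346 in the vector library, -0.33) and COQ4 (354 and 446, -0.33). CYCS, cytochrome c, had 6063 and 6478 reads (-0.09, -0.14 to -0.04). With CYC1 it belongs to a list of 5 genes, outside the symbol rule, that are part of the chain or linked to it. The list had a median of 0.03, while CYC1 and CYCS both had intervals below 0. The other 3 lay above 0: COQ10B, a coenzyme Q-binding protein gene (486 and 336 rounded reads, 0.54, 0.34 to 0.75), its relative COQ10A (44 and 38 reads, 0.22) and HCCS, which attaches haem to cytochrome c (831 and 816 reads, 0.03), with intervals that included 0 for COQ10A and HCCS. The citric acid cycle list had a median of -0.08 in 14 genes, with 4 intervals below 0 and 1 above. In it IDH2, the mitochondrial NADP-dependent isocitrate dehydrogenase, had 31 reads in the FLI1 library and 60 in the vector library (-0.93, -1.62 to -0.30), and IDH3G had 584 and 662 (-0.17). Glycolytic genes, the other route to ATP, had a median of -0.01 in 17 genes, with 2 intervals below 0 and 6 above. Among those above, HK2, hexokinase 2, was highest with 1928 reads in the FLI1 library and 1345 in the vector library (0.53, 0.43 to 0.63), and next was PKM, pyruvate kinase (50937 and 46822 reads, 0.13). Of these lists, glycolysis alone had more intervals above than below 0 (35.3% and 11.8%), while 9 of its 17 genes lay below 0. Over all genes 16.5% of intervals lay above 0 and 14.7% below. Glycolytic genes had a median of 8916.5 reads, against 542 over all genes, and intervals narrow as reads rise.

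Regulators of the respiratory genes showed no common direction. PPARGC1A, the coactivator PGC-1alpha, had 22 reads in the FLI1 library and 46 in the vector library (-1.04, -1.86 to -0.29), close to the filter. Its relative PPARGC1B had 707 and 603 reads (0.24, 0.08 to 0.40). TFAM, the packaging and transcription factor of mitochondrial DNA, had 2000 and 2192 reads (-0.12), and TFB1M 400 and 489 (-0.28). NRF1 (310 and 306 reads, 0.03) and GABPA (580 and 589 rounded reads, -0.01) had intervals that included 0. In the list as a whole 19 of 20 genes were measured, with a median of -0.03, 4 intervals below 0 and 2 above. These intervals are 21.1% and 10.5% of the measured genes, against 14.7% and 16.5% of all genes. PPARGC1B, TFAM, NRF1 and GABPA were picked for their roles after values had been seen.

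**Figure D4:**
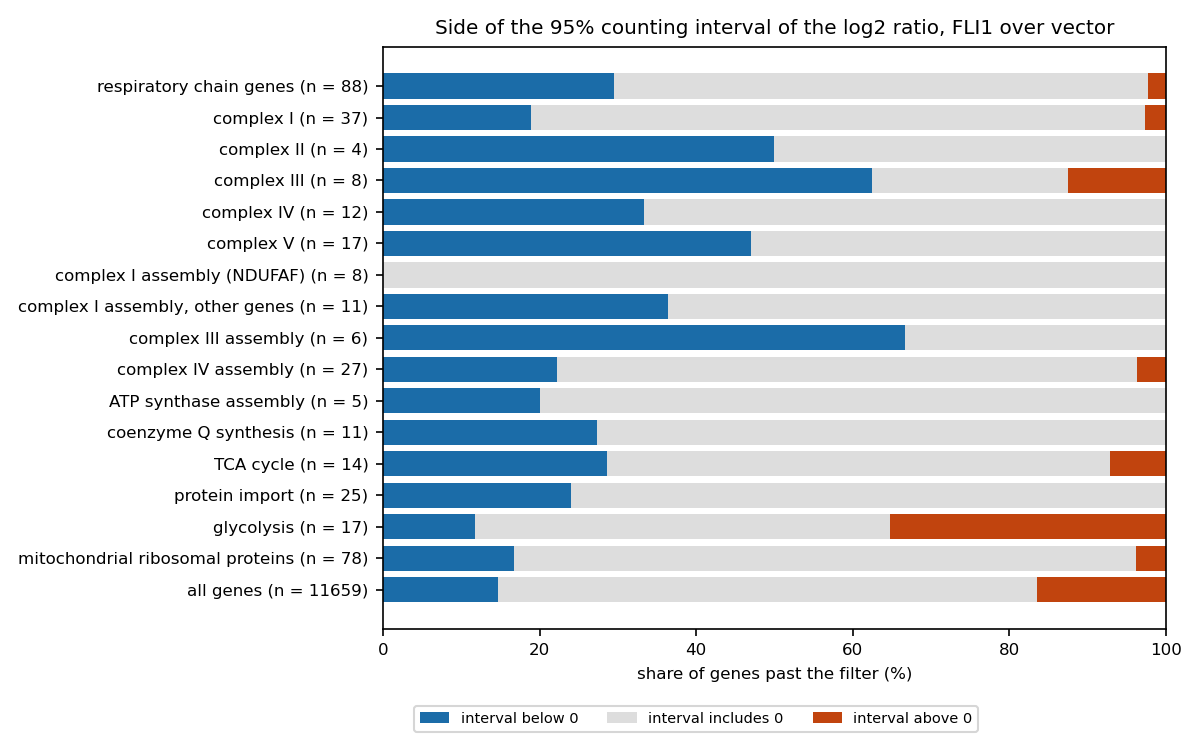
Share of genes past the filter (x axis, %) whose 95% counting interval of the log2 ratio, FLI1 over vector, lay below 0 (blue), included 0 (grey) or lay above 0 (orange), for respiratory chain genes, their complexes, related lists and all genes. Intervals below 0 make up 29.5% of respiratory chain genes and 14.7% of all genes. Glycolysis has 6 of 17 intervals above 0 (35.3%), against 16.5% of all genes.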

How the data were processed

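RNA-seq of 2 HaCaT libraries was used, 1 per group. The labels' protocols name total RNA and a BGISEQ instrument, and the submitters' processing notes name build GRCh38.p13. Neither aligner nor counter nor strand handling is given in the sources used here. The deposited tables give, per the file headers, an estimated count, an FPKM and a TPM for each gene and transcript. The deposited estimated counts are unscaled and need not be whole, so they were rounded. The deposited FPKM values served as an alternative scale and the deposited TPM values for levels. No column was left without a sample (0 unmatched).

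Counts were scaled by TMM over the whole gene table (edgeR 4.0.16, R 4.3.3; factors 0.991 for FLI1 and 1.01 for vector). The log2 ratio used counts plus 0.5. Exact conditional (Clopper-Pearson) 95% intervals cover counting error only; their half-width was 0.41 at 100 reads per library, 0.20 at 400, 0.13 at 1000 and 0.07 at 3000. Genes needed 20 reads in 1 library. Size rules were 1.2-fold and 2-fold. The interval calculation was tested on simulated data.

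Genes of each complex were named by rule: the 3 highest by TPM, the 3 highest and the 3 lowest ratios, all of complex II, isoform pairs, and genes past 2-fold or below the filter; other genes are given as examples. Members and lists were chosen with earlier results of these data known. DESeq2 1.42.0 gave size factors for an alternative. Promoters came from RefSeq by gene ID. For 1 gene of complex I, own values are not reported here; it is kept in counts, sums and medians.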

Additional observations from a re-analysis of the deposited data

How the results depend on the processing

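The medians of all respiratory chain genes, of complexes I to V and of the assembly factors stayed below 0 under every alternative run. Some scales also put the median of all genes in the table below 0, at -0.019 from FPKM plus 0.5 and -0.026 from TPM plus 1. On those scales complex I lay at -0.038 and -0.046, and complex IV at -0.043 and -0.051. Scaled by library total, medians were -0.091 for all, -0.072 for complex I and -0.11 for complex V, when the median of all genes in the table was -0.03; 1 interval lay above 0 and 2 genes were at least 1.2-fold lower. Per implied length, an alternative chosen after seeing the data, medians were -0.039 for all, -0.012 for complex I and -0.061 for complex V, and 0 genes were at least 1.2-fold lower. Apart from the added 0.5 or 1, ratios from FPKM, from TPM and per implied length differ by constants shared by all genes. These scales are therefore not separate checks. With a minimum of 1 read the complex IV median was -0.070, because COX6B2 and NDUFA4L2 entered, and 3 genes were at least 1.2-fold lower and 1 higher. From FPKM plus 0.5, FPKM plus 1 or TPM plus 1, 2 genes were at least 1.2-fold lower. The other 108 values for medians and counts moved less than the half-width of the counting interval of their group's summed reads or stayed within 1.5 times of the count. Complex I was nearer to 0 than complex IV from FPKM or TPM, per implied length, with a minimum of 1 read and with NDUFA4 in complex I, and complex IV was nearer under the other settings. For named genes, 5 values gained an interval away from 0, 1 lost it, 1 moved out of its interval and 416 did neither. SDHC, UQCRFS1, COX4I1, COX7A2L, ATP5ME, ATP5MK, ATP5IF1 and NDUFAF1, whose intervals included 0, changed sign under at least 1 scale. No paired analysis was possible because each group had 1 library, and for the same reason no library could be left out. Depth limits the assembly factors most: at 400 reads per library, differences under 0.20 on the log2 scale are within counting error.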

Other observations

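Further mitochondrial genes were read as lists. Protein import genes had a median log2 ratio of -0.02 in 25 genes, with 6 intervals below 0 and 0 above. The 6 are 24% of the list, against 14.7% of all genes. TIMM8A, a small chaperone of the intermembrane space, had 211 reads in the FLI1 library and 279 in the vector library (-0.39, -0.66 to -0.13), and its relative TIMM9 had 434 and 527 (-0.27, -0.46 to -0.09).

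Among 9 genes of defence against oxygen radicals the median was -0.07, with 1 interval below 0 and 1 above. Each is 11.1% of the list, against 14.7% and 16.5% of all genes. SOD2, the superoxide dismutase of the mitochondrial matrix, had 3962 estimated reads in the FLI1 library and 3447 in the vector library (0.21, 0.14 to 0.27), while the cytosolic SOD1 had 1518 and 1638 (-0.10).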
